A study of Mus musculus with 19 samples.

Results

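The genes described here are 31 genes that mark macrophages and microglia, the tissue phagocytes of the body and of the brain. They were listed by symbol, and every probe set annotated to one of those symbols was taken. A probe set is the group of short oligonucleotides that reads 1 transcript on the array, and the 31 genes had 50 of them. Of these, 43 probe sets, standing for 30 genes, passed the filter on low signals, which kept 31143 probe sets and 13454 genes in all. Itgam, a subunit of an adhesion receptor of myeloid cells, did not pass: its single probe set read from 0.6 to 29.8 over the 19 tumours, with the highest value in 160 mg/kg tumour 6.

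The tumours were mouse medulloblastomas from Ptch+/-p53-/- mice, which lack p53 and carry 1 working copy of Ptch, the gene of the receptor that restrains Hedgehog signalling. Cells dissociated from such tumours were placed under the skin of the flank of Harlan nu/nu mice, a strain without a working thymus that still has macrophages. All 3 groups therefore shared tumour genotype, host and site: 3 tumours of mice given vehicle, 8 of mice given NVP-LDE225 at 40 mg/kg and 8 at 160 mg/kg. NVP-LDE225 blocks Smoothened, the membrane protein through which Hedgehog signals, and the labels call every treated tumour Resistant and every vehicle tumour Sensitive. For tumours 6 and 7 of the 160 mg/kg group the source name also reads resistant, while it reads treated for the other treated tumours. The host's age, the duration of dosing and the number of donor tumours were not given in the sources used here. Nothing in the labels says how the tumours of a group relate beyond their numbers, so the p-values measure only the spread between these samples. RNA came from whole tumour pieces, so fewer macrophages and less RNA per macrophage cannot be told apart, nor can cells of the host and cells carried over with the graft.

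Macrophages depend on Csf1r, the receptor for the growth factor CSF1, and on PU.1, the transcription factor encoded by Spi1. They detect antibody-coated or lipid-bearing particles through receptors that signal by the adaptors Tyrobp and Fcer1g, take particles up through scavenger receptors, and digest them in lysosomes. Microglia are the macrophages of the brain and add genes such as P2ry12 and Cx3cr1. Tumours draw in macrophages from the blood, and these can form a large share of the cells of a solid tumour.

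PU.1 binds DNA at sites built around the letters GAGGAA, and promoters picked from those of the 31 genes that hold these letters are shown. Whether the letters bear on how the signals of the genes varied from tumour to tumour was not tested. The sequences are from RefSeq (GRCm38.p6), each covering the 250 bases before a gene's start and written 5′ to 3′ on the gene's strand. Capitals mark GAGGAA or its reverse complement TTCCTC. The genes are C1qb (chr4:136886201-136886450, minus strand) and C1qc (chr4:136892915-136893164, minus strand), neighbours that encode chains of 1 complement protein, with Ptprc (chr1:138175306-138175555, minus strand) and Cd53 (chr3:106790150-106790399, minus strand), a pair of surface proteins of all leukocytes.
C1qb: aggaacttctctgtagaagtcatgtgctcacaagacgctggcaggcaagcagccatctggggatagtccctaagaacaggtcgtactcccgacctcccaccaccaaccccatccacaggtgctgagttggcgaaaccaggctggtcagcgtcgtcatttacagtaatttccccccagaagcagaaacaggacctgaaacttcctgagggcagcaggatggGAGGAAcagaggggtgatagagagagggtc
C1qc: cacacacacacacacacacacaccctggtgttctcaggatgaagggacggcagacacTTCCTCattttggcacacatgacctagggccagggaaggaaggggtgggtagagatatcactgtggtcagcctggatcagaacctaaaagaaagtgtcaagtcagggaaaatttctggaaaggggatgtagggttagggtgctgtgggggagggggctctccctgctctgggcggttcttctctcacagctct
Ptprc: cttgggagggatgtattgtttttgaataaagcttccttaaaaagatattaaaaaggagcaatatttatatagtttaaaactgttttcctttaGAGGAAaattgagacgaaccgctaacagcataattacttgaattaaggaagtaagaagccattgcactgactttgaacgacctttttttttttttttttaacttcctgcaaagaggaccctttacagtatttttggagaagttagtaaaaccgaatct
Cd53: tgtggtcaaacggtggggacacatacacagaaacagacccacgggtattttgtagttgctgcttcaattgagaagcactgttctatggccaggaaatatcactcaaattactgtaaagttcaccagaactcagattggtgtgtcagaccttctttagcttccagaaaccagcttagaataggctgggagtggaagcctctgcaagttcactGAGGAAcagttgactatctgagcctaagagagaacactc
The first base of the match lay 30 bases before the start in C1qb, 193 in C1qc, 158 in Ptprc and 39 in Cd53. Promoters of 24 of the 31 genes were in the table, 29 promoters in all because some genes have more than 1 start, and Tyrobp, Csf1r, C1qa, Adgre1, Cd14, Msr1 and Spi1 were not matched. GAGGAA stood on either strand in 16 of the 29 promoters, against 23.3% of all 32851 promoters of the same length, and in 14 of the 24 genes (58.3%) against 25.9% of all genes. The longer form GAGGAAGT, which contains the shorter one, was the only other motif searched, also on both strands. It was found in 1 of the 29 promoters, that of C1qc, against 2.44% of all promoters. These are matches of letters within the window and were not tested as binding sites.

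Signals were MAS5 values on a linear scale, in arbitrary units that can be set side by side between tumours for 1 probe set but not between genes. Every array had been brought to a trimmed mean signal of 150, while median signals ran from 32.7 to 49.7. Correlations between arrays were 0.908 to 0.963, and the arrays least like the others were vehicle tumour 3 and 160 mg/kg tumour 2. Of 10 granule neuron precursor genes, the lineage of this tumour, all 10 passed the filter and 4 (Cntn2, Sox11, Neurod1 and Zic1) rose in treated tumours. Over all 13454 genes, 385 rose. Over all probe sets, 822 rose and 570 fell in treated tumours, and with each array's median subtracted 825 rose and 199 fell.

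None of the 30 genes passed the test for a change with treatment, and their signals differed widely from one tumour to the next. Changes are given as log2(signal + 2.5), which understates the change of dim probe sets, and were tested with limma in 1 fit over all 19 tumours, with Benjamini-Hochberg adjustment over all probe sets and a threshold of 0.05. Each gene is represented by its kept probe set with the highest mean. In treated tumours of both doses against vehicle, 0 of the 30 genes passed, against 5.32% of all genes, and 1 of 30 had an unadjusted p under 0.05, against 23.4% of all genes. At 40 mg/kg against vehicle 0 of 30 passed (2.56% of all genes), and 3 had an unadjusted p under 0.05 (21.0% of all genes). At 160 mg/kg against vehicle 0 of 30 passed (4.91% of all genes), and 1 had an unadjusted p under 0.05 (22.3% of all genes). Between 160 and 40 mg/kg 0 of 30 passed, as did 0.0% of all genes, and 0 of 30 had an unadjusted p under 0.05, against 7.42% of all genes.

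The median change of the 30 genes in treated tumours was -0.02 on the log2 scale, with 14 genes above 0 and 16 below, beside a median of -0.06 over all genes. At 40 mg/kg it was 0.17, with 20 genes above 0, beside -0.05 over all genes. At 160 mg/kg it was -0.09, with 13 genes above 0, beside -0.07 over all genes. Set directly against each other, 160 mg/kg was lower than 40 mg/kg in 24 of the 30 genes, with a median of -0.27 beside -0.02 over all genes, and none of these differences passed. Both dose comparisons share the same 3 vehicle tumours. No gene of the 30 separated the groups without overlap in any of these comparisons. Over all genes, 2.0% lay above and 2.53% below every vehicle tumour in all treated tumours, and 5.05% and 6.29% did so at 40 mg/kg. The corresponding shares were 3.77% and 5.21% at 160 mg/kg, and 0.0% and 0.0149% for 160 against 40 mg/kg. The median standard error of a change was 0.46 for the 30 genes and 0.19 for all genes, so the comparison was less precise for them. The comparison therefore leaves room for differences in either direction: for C1qa the 95% interval of the treated change ran from -0.85 to 1.31.

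**Figure D1:**
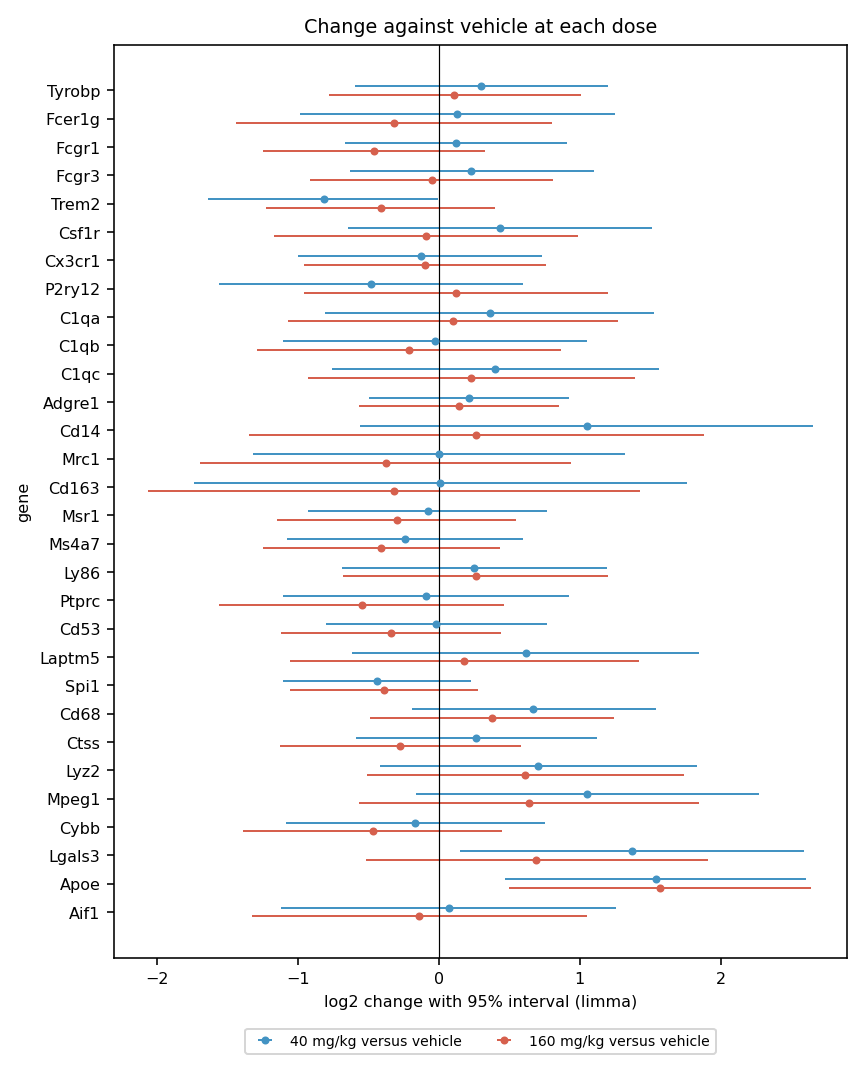
Log2 change against vehicle at 40 mg/kg (blue) and 160 mg/kg (red) for the 30 genes kept, grouped by role, with the 95% interval from limma. The intervals of most genes cross 0, and the points of Apoe lie farthest to the right, at 1.54 and 1.57.

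One tumour stood apart. In 160 mg/kg tumour 6, 26 of the 30 genes had their highest value among the 16 treated tumours, against 8.68% of all genes. The other 4 peaked elsewhere: Trem2 in 160 mg/kg tumour 4, P2ry12 in 160 mg/kg tumour 7, Cd163 in 40 mg/kg tumour 6 and Lgals3 in 40 mg/kg tumour 8. Measured from the vehicle mean, the median log2 difference of the 30 genes in 160 mg/kg tumour 6 was 1.75, with quartiles of 1.24 and 2.11, beside -0.03 over all genes on that array. The tumour with the next highest median was 40 mg/kg tumour 2, at 0.85. The lowest medians at 160 mg/kg were those of tumour 5 (-0.96), tumour 2 (-0.79) and tumour 1 (-0.69), and at 40 mg/kg that of tumour 4 (-0.74). The remaining treated tumours had medians between -0.25 and 0.52, and the vehicle tumours -0.05, -0.27 and 0.20. Single tumours moved the medians over the 30 genes. Without 160 mg/kg tumour 6 the median change at 160 mg/kg was -0.35 against vehicle and -0.51 against 40 mg/kg, the treated median was -0.14, and no gene passed in any of these. Without 160 mg/kg tumour 5, the lowest, the same medians were 0.07, -0.10 and 0.05. Against 40 mg/kg, the median was -0.14 when tumour 1 or tumour 2 of the 160 mg/kg group was left out. Leaving out tumour 2 of the 40 mg/kg group gave -0.17, and leaving out its tumour 4 gave -0.41. With any 1 of the 19 tumours left out, the median ran from -0.35 to 0.07 for 160 mg/kg against vehicle, from 0.10 to 0.33 for 40 mg/kg against vehicle, from -0.14 to 0.16 for all treated tumours and from -0.51 to -0.10 between the doses.

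**Figure D2:**
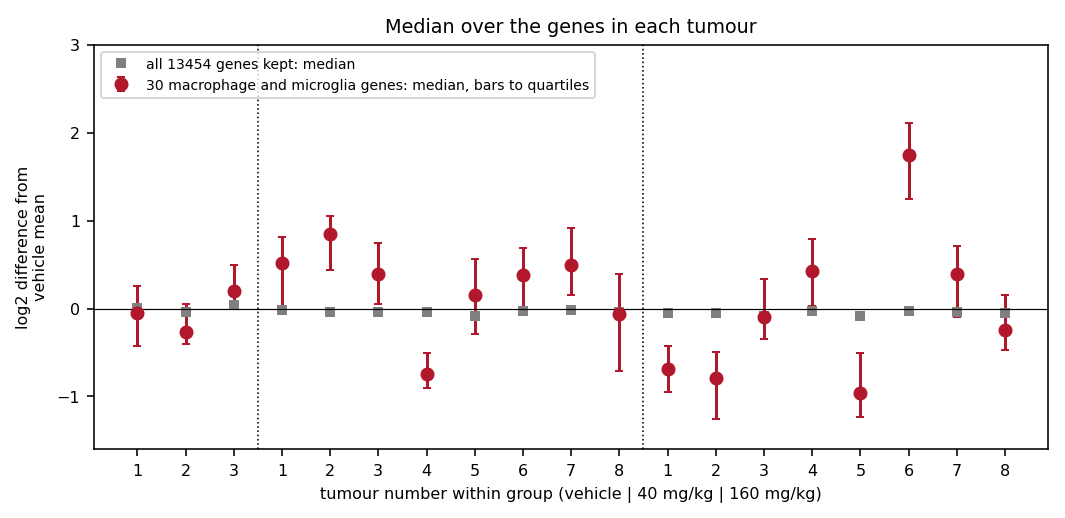
Median log2 difference from the vehicle mean in each of the 19 tumours, for the 30 macrophage and microglia genes (red, bars to the quartiles) and for all 13454 genes (grey). The grey points stay near 0, while the red points run from -0.96 in 160 mg/kg tumour 5 to 1.75 in 160 mg/kg tumour 6.

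The spread between tumours of 1 group was wider for these genes than for most genes. At 160 mg/kg the median SD of the 30 genes was 0.97 on the log2 scale, beside 0.33 over all genes, and 29 of the 30 lay above the all-gene median. At 40 mg/kg it was 0.65 beside 0.27, with all 30 above, and in vehicle tumours 0.42 beside 0.20, with 27 above. At 160 mg/kg the SD ran from 0.32 for P2ry12 to 1.38 for Cd14, a co-receptor for bacterial lipopolysaccharide.

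**Figure D3:**
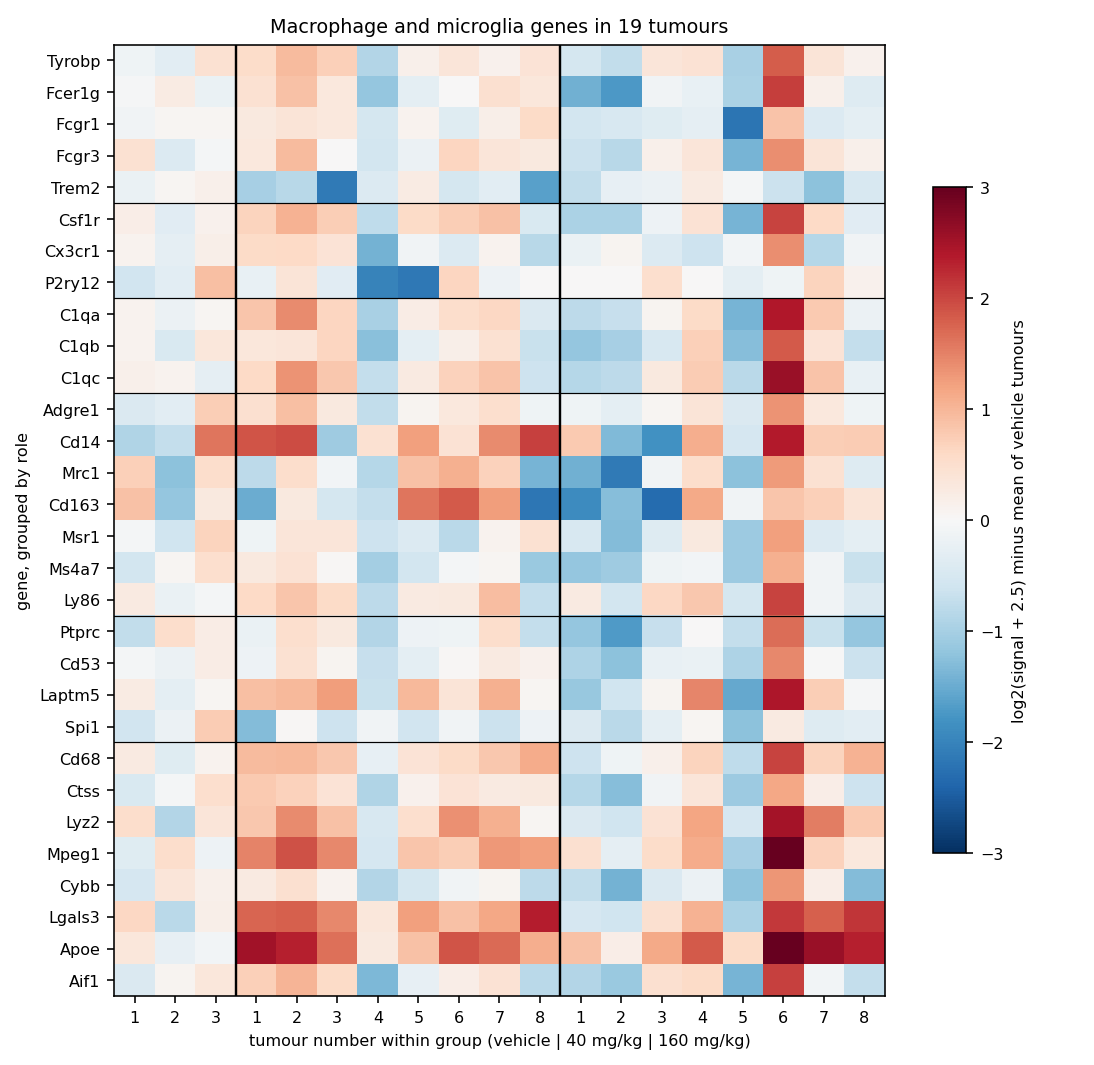
Log2(signal + 2.5) minus the mean of the vehicle tumours for 30 genes (rows, grouped by role) in 19 tumours (columns, numbered within vehicle, 40 mg/kg and 160 mg/kg), with red above and blue below the vehicle mean. The column of 160 mg/kg tumour 6 is red in 28 of the 30 genes, and that of 160 mg/kg tumour 5 is above the vehicle mean in 1.

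Among the signalling adaptors, Tyrobp, which carries the signal of Trem2 and other receptors, read 100.5, 87.7 and 152.1 in the vehicle tumours. It had a lowest value of 59.3, a median of 144.95 and a highest of 214.6 at 40 mg/kg, and 54.8, 131.8 and 397.8 at 160 mg/kg. Its groups overlapped, with 4 treated tumours above all vehicle tumours and 4 below, and its change in treated tumours was 0.21 ± 0.40 (SE; limma adjusted p = 0.796). Fcer1g, the shared gamma chain of Fc receptors, read 80.1, 98.4 and 71.0 in vehicle tumours. Its lowest, median and highest values were 35.5, 103.5 and 154.2 at 40 mg/kg, and 23.3, 66.2 and 356.5 at 160 mg/kg. The treated tumours lay on both sides of the vehicle tumours, 6 above them all and 7 below, and the treated change was -0.10 ± 0.50 (limma adjusted p = 0.931). The highest treated value of Fcer1g, in 160 mg/kg tumour 6, was 15.3-fold its lowest, in 160 mg/kg tumour 2.

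Fcgr1, the high-affinity receptor for immunoglobulin G, had the smallest p between the doses. It read 39.7, 44.4 and 44.6 in vehicle tumours, 28.8 to 65.0 with a median of 50.9 at 40 mg/kg, and 7.5 to 78.9 with a median of 32.2 at 160 mg/kg. At 160 mg/kg 7 of 8 tumours were below all vehicle tumours and tumour 6 was above them, while at 40 mg/kg 6 of 8 were above. The difference of 160 from 40 mg/kg was -0.58 ± 0.28 (limma adjusted p = 0.731). A second kept probe set of Fcgr1 gave -0.03 ± 0.24 for the same comparison and did not follow the first across tumours (r = -0.12, n = 19). Fcgr3, a low-affinity receptor of the same family, read 46.1 to 86.8 in vehicle tumours and 22.0 to 168.8 in treated ones, lowest and highest in 160 mg/kg tumours 5 and 6.

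Trem2, a lipid-sensing receptor that signals through Tyrobp, was read by 2 kept probe sets whose changes had opposite signs. The brighter one read 27.8, 33.2 and 35.6 in vehicle tumours, 5.5 to 38.7 with a median of 19.15 at 40 mg/kg, and 12.3 to 39.4 with a median of 24.35 at 160 mg/kg. On it 12 of 16 treated tumours were below all vehicle tumours, and the treated change was -0.62 ± 0.36 (limma adjusted p = 0.331). The dimmer one read 4.6, 4.2 and 10.0 in vehicle tumours, 4.0 to 38.8 with a median of 17.0 at 40 mg/kg, and 3.4 to 76.0 with a median of 12.4 at 160 mg/kg. On that probe set 9 of 16 treated tumours were above all vehicle tumours, 160 mg/kg tumour 6 was the highest, and the treated change was 0.99 ± 0.65 (limma adjusted p = 0.387). Over 19 tumours the 2 probe sets had r = -0.39, so these arrays gave no single direction for Trem2.

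Csf1r, the growth factor receptor on which macrophages depend, read 203.7, 140.0 and 193.8 in vehicle tumours on its brightest probe set. Its values ran from 104.0 to 369.9 with a median of 288.0 at 40 mg/kg, and from 65.8 to 726.9 with a median of 149.75 at 160 mg/kg. At 40 mg/kg 6 of 8 tumours were above all vehicle tumours, and at 160 mg/kg 3 were above and 4 below. The treated change was 0.17 ± 0.48 (limma adjusted p = 0.869). Its other kept probe sets gave -0.13 ± 0.45 and -0.52 ± 0.27 (limma adjusted p = 0.891 and 0.258) and followed the brightest with r = 0.94 and 0.51 over 19 tumours. The brightest and the second were highest in 160 mg/kg tumour 6, and the last was highest in vehicle tumour 3.

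Of the microglia-associated receptors, P2ry12, a receptor for extracellular ADP, was dim. It read 8.8, 11.0 and 29.3 in vehicle tumours, 1.3 to 23.9 with a median of 12.4 at 40 mg/kg, and 11.3 to 24.4 with a median of 14.65 at 160 mg/kg. Every treated tumour was below vehicle tumour 3, and no treated tumour was above all vehicle tumours. The dose difference was 0.60 ± 0.38 (limma adjusted p = 0.797), with tumours 4 and 5 of the 40 mg/kg group at 1.7 and 1.3. Cx3cr1, the receptor for fractalkine, read 44.4, 33.3 and 46.1 in vehicle tumours and 13.7 to 111.4 in treated ones, with the highest value again in 160 mg/kg tumour 6.

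The 3 chains of C1q, the complement protein that starts the classical pathway, moved together from tumour to tumour. C1qa read 189.5, 154.0 and 182.7 in vehicle tumours, 88.5 to 468.8 with a median of 261.4 at 40 mg/kg, and 64.9 to 939.3 with a median of 169.1 at 160 mg/kg. C1qc read 99.8, 97.0 and 74.4 in vehicle tumours, 53.3 to 230.3 with a median of 141.9 at 40 mg/kg, and 48.6 to 548.3 with a median of 93.2 at 160 mg/kg. For both genes 40 mg/kg tumour 2 and 160 mg/kg tumour 6 were the highest of their groups, and 40 mg/kg tumour 4 was the lowest of its group. C1qb read 291.6, 198.1 and 344.0 in vehicle tumours, 112.1 to 425.2 with a median of 323.95 at 40 mg/kg, and 110.2 to 969.7 with a median of 177.65 at 160 mg/kg. The treated changes were 0.23 ± 0.52 for C1qa, -0.12 ± 0.48 for C1qb and 0.31 ± 0.52 for C1qc (limma adjusted p = 0.828, 0.911 and 0.755). The vehicle tumours lay inside the range of the treated ones for each chain. Both further probe sets of C1qb followed the brightest with r = 0.93 over 19 tumours.

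**Figure D4:**
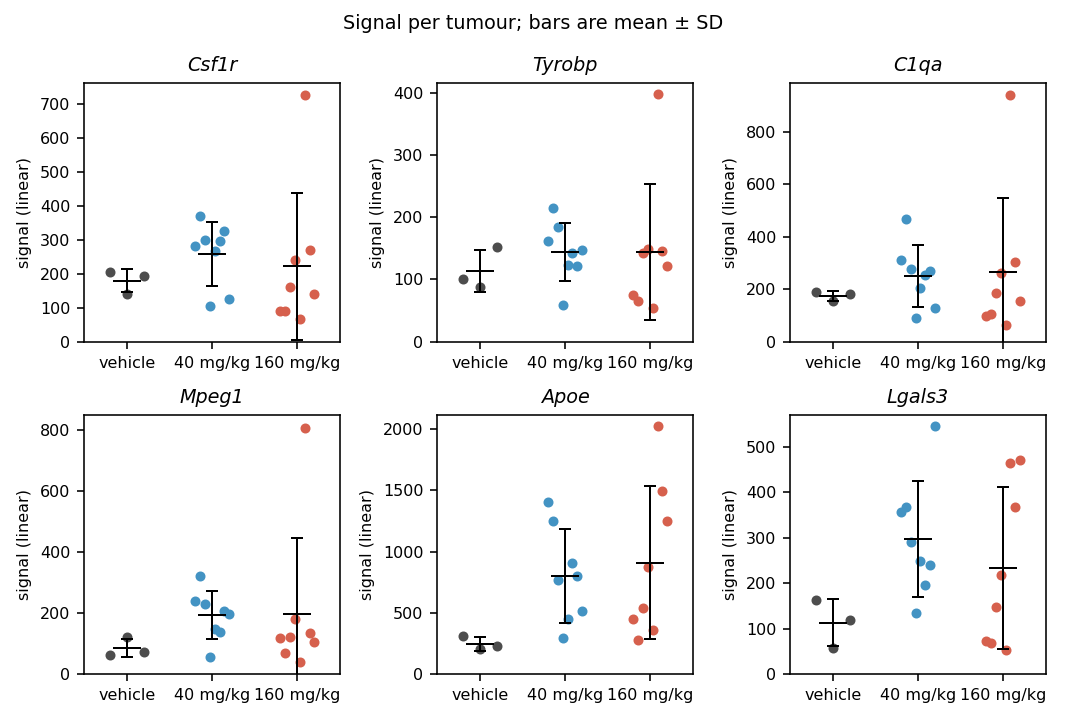
Linear MAS5 signal of Csf1r, Tyrobp, C1qa, Mpeg1, Apoe and Lgals3 in each vehicle (grey), 40 mg/kg (blue) and 160 mg/kg (red) tumour, with the mean and SD of each group (3, 8 and 8 tumours); lower SD bars that pass 0 end at the axis. For Csf1r, Tyrobp, C1qa, Mpeg1 and Apoe the topmost red point is 160 mg/kg tumour 6, and for Lgals3 the topmost point is 40 mg/kg tumour 8, at 544.6.

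Among the surface and scavenger receptors, Mrc1, the mannose receptor of tissue macrophages, read 125.0, 30.7 and 110.5 in vehicle tumours. Its values were 27.3 to 160.4 with a median of 90.85 at 40 mg/kg, and 15.6 to 185.6 with a median of 63.75 at 160 mg/kg. Vehicle tumour 2 was far below the other vehicle tumours, treated tumours lay on both sides, and the treated change was -0.19 ± 0.59 (limma adjusted p = 0.881). Cd163, the scavenger receptor for haemoglobin bound to haptoglobin, read 38.3, 7.5 and 24.8 in vehicle tumours and shared the low value of vehicle tumour 2. Its treated values ran from 2.0 to 76.9, and its SD at 40 mg/kg, 1.48 on the log2 scale, was the widest of the 30 genes in that group. Adgre1, Cd14, Msr1, Ms4a7 and Ly86, the remaining surface proteins of this set, all had their highest treated value in 160 mg/kg tumour 6. Cd14 also differed widely among vehicle tumours, at 4.9, 5.9 and 39.6.

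Ptprc, the phosphatase CD45 carried by all leukocytes, read 60.5, 148.3 and 119.8 in vehicle tumours. It ran from 54.5 to 150.0 with a median of 92.7 at 40 mg/kg, and from 30.0 to 331.2 with a median of 62.1 at 160 mg/kg. Only 1 tumour at each dose exceeded all vehicle tumours, and the treated change was -0.32 ± 0.45 (limma adjusted p = 0.709). Cd53, a tetraspanin of leukocytes, and Laptm5, a lysosomal protein of blood cells, also peaked in 160 mg/kg tumour 6 on their brightest probe sets. The treated change of Laptm5 was 0.40 on that probe set and -0.29, -0.34 and -0.64 on its other kept ones, and none passed. The probe set at -0.64 peaked among treated tumours in 40 mg/kg tumour 3 and did not follow the brightest (r = 0.16, n = 19). Spi1 read 27.9, 37.7 and 74.4 in vehicle tumours, 16.1 to 44.3 with a median of 32.95 at 40 mg/kg, and 17.0 to 52.5 with a median of 33.1 at 160 mg/kg. Vehicle tumour 3 was above every treated tumour, no treated tumour was above all vehicle tumours, and the treated change was -0.41 ± 0.30 (limma adjusted p = 0.431). Without vehicle tumour 3 and 160 mg/kg tumour 2 the change of Spi1 was -0.01 in treated tumours, and at 160 mg/kg it moved from -0.39 to 0.05.

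Apoe, the lipid carrier apolipoprotein E, came closest to passing. It read 310.2, 204.4 and 229.4 in vehicle tumours (mean 248 ± 55.3, SD, n = 3). At 40 mg/kg it ran from 298.3 to 1403.4 with a median of 782.65 (mean 799 ± 384, n = 8), and at 160 mg/kg from 280.9 to 2020.1 with a median of 707.9 (mean 908 ± 624, n = 8). In 14 of the 16 treated tumours Apoe was above all vehicle tumours, and the exceptions, 40 mg/kg tumour 4 and 160 mg/kg tumour 2, overlapped them. The treated change was 1.56 ± 0.48 on the log2 scale, 2.94-fold, with a 95% interval of 0.56 to 2.55 (limma adjusted p = 0.0648). It was 1.54 ± 0.51 at 40 mg/kg and 1.57 ± 0.51 at 160 mg/kg (limma adjusted p = 0.112 and 0.0864). The doses differed by 0.03 ± 0.38 (95% interval -0.76 to 0.82).

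Whether Apoe passed in treated tumours depended on single arrays and settings, while its change ran from 1.43 to 1.73 over the alternatives. Its adjusted p by limma was 0.0409 without 40 mg/kg tumour 4, 0.036 without 160 mg/kg tumour 2, 0.0473 without 160 mg/kg tumour 5 and 0.0488 with array medians subtracted. Over all alternatives it ran from 0.00185 with array weights to 0.258 without vehicle tumour 3. Apoe is also made by astrocytes and other cells: of 7 astrocyte genes kept, Fabp7 (3.59 ± 0.79, limma adjusted p = 0.0135) and Aldoc (1.93 ± 0.55, limma adjusted p = 0.0489) rose and Gja1 fell by 1.40 ± 0.35 (limma adjusted p = 0.0283) in treated tumours. Over all genes, 5.32% passed in treated tumours. The part of astrocytes and other cells in the signal of Apoe was not tested. Within doses, the median r of Apoe with the other 29 genes was 0.78, and 0.73 without 160 mg/kg tumour 6.

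Lgals3, which encodes the lectin galectin-3 and is not restricted to macrophages, read 162.2, 58.9 and 119.6 in vehicle tumours. It ran from 133.6 to 544.6 with a median of 270.1 at 40 mg/kg, and from 53.3 to 471.5 with a median of 182.7 at 160 mg/kg. At 40 mg/kg 7 of 8 tumours were above all vehicle tumours, and at 160 mg/kg 4 of 8. The change at 40 mg/kg was 1.37 ± 0.58 (limma adjusted p = 0.203) and in all treated tumours 1.03 ± 0.54 (limma adjusted p = 0.276). Fitted on the 40 mg/kg and vehicle tumours alone, Lgals3 passed at 40 mg/kg with the same change (limma adjusted p = 0.0466), and over all alternatives its adjusted p ran up to 0.466, without vehicle tumour 2.

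Mpeg1, the pore-forming protein perforin-2 of macrophages, read 64.4, 120.7 and 74.7 in vehicle tumours, 58.1 to 322.4 with a median of 203.6 at 40 mg/kg, and 40.6 to 806.4 with a median of 120.6 at 160 mg/kg. The value of 806.4, in 160 mg/kg tumour 6, was 2.50-fold the next treated tumour and 19.9-fold the lowest, and 7 of 8 tumours at 40 mg/kg and 4 of 8 at 160 mg/kg were above all vehicle tumours. The treated change was 0.85 ± 0.54 (limma adjusted p = 0.373).

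Cd68, a lysosomal glycoprotein, read 81.2, 51.8 and 72.1 in vehicle tumours, 56.7 to 148.2 with a median of 119.25 at 40 mg/kg, and 38.8 to 279.6 with a median of 91.2 at 160 mg/kg. In 11 of 16 treated tumours it was above all vehicle tumours, with a treated change of 0.53 ± 0.39 (limma adjusted p = 0.441). Ctss, the lysosomal protease cathepsin S, read 325.2, 431.4 and 634.2 in vehicle tumours, 236.3 to 773.9 with a median of 570.5 at 40 mg/kg, and 183.7 to 1007.0 with a median of 351.55 at 160 mg/kg. Its dose difference was -0.54 ± 0.30 (limma adjusted p = 0.77), with the groups overlapping. Lyz2 (lysozyme), Cybb (the catalytic subunit of the phagocyte oxidase) and Aif1 (the calcium-binding protein IBA1 used to stain microglia) were highest in 160 mg/kg tumour 6, and their treated changes of 0.66, -0.32 and -0.03 did not pass. The other kept probe sets of Cybb gave -0.33 and -0.43, which did not pass either.

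Within doses, the genes varied together. After each dose's mean was removed, the 435 pairs among the 30 genes had a median Pearson r of 0.74 over 16 treated tumours, with quartiles of 0.46 and 0.88, while pairs over all genes had a median of 0.00. An r above 0.5 was found in 71.0% of the pairs of these genes and in 4.85% of pairs over all genes. All points share arrays, and 1 tumour weighs heavily: without 160 mg/kg tumour 6 the median was 0.62, with quartiles of 0.32 and 0.79, and 61.4% of pairs were above 0.5, against 5.53% over all genes. C1qa and Ctss followed the rest most closely, with median r of 0.90 and 0.89, and C1qc, Adgre1 and Aif1 came next at 0.88. Trem2 did not follow on its brighter probe set, with a median r of -0.17. P2ry12 and Cd163, at 0.33 each, Spi1 at 0.41, Cd14 at 0.46 and Cx3cr1 at 0.52 were the next lowest. Their order rested on 160 mg/kg tumour 6: without it Cd14 was at 0.21, Spi1 at 0.22, Cd163 at 0.24 and Cx3cr1 at 0.26, while P2ry12 was at 0.51 and Fcgr1 went from 0.67 to 0.44.

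For 12 pairs of genes that act in 1 complex, pathway or cell state, r and rho were tested over the 16 treated tumours with two-sided permutation tests of 100000 resamples, adjusted over the 12 pairs, and 10 passed by either measure. Without 160 mg/kg tumour 2, and likewise without 160 mg/kg tumour 6, 9 passed. How many arbitrary pairs of the macrophage and microglia genes would pass was not tested. With each dose's mean removed, all 435 such pairs had a median r of 0.74 and an upper quartile of 0.88. A pass alone therefore does not set a pair apart from other pairs of these genes. C1qa and C1qc had r = 0.98 and rho = 0.94, both with a permutation p of 1e-05, the smallest these permutations can give (adjusted p = 2.4e-05 and 4e-05). Their r was 0.97 within 40 mg/kg, 0.98 within 160 mg/kg and 0.98 without the 2 tumours farthest from the median of C1qa, 160 mg/kg tumours 5 and 6. The other C1q pairs had r of 0.95 (C1qa and C1qb) and 0.96 (C1qb and C1qc). Tyrobp and Fcer1g had r = 0.93 (rho = 0.83, permutation p = 1e-05 and 0.00015), and Ptprc and Cd53 r = 0.91 (rho = 0.82, permutation p = 1e-05 and 0.00019). These 2 pairs kept r of 0.92 and 0.78 without their 2 farthest tumours, and r of 0.91 and 0.74 within 40 mg/kg.

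Csf1r was related to Tyrobp (r = 0.90, 0.71 within 40 mg/kg) and to Apoe (r = 0.79, 0.78 within 40 mg/kg), and Tyrobp to Lgals3 (r = 0.79, 0.73 within 40 mg/kg), with adjusted permutation p of 4e-05, 0.000375 and 0.000375. The scavenger receptors Mrc1 and Cd163 had r = 0.78 (adjusted permutation p = 0.000867), with 0.97 within 40 mg/kg and 0.63 within 160 mg/kg. Cd14 and Msr1, the scavenger receptor for modified lipoproteins, had r = 0.61 (adjusted permutation p = 0.0146), which was 0.78 within 160 mg/kg and 0.21 within 40 mg/kg. The difference between the doses in this relation was not tested. Msr1 was read here on its brightest probe set, which its other kept ones followed with r of 0.58 and 0.56 over all 19 tumours. The relation was not tested on those. The r of the tested pairs were taken without removing each dose's mean, unlike those of all 435 pairs, so setting them side by side is only rough. Set beside all 435 pairs in this way, only the r of Csf1r and Tyrobp among these pairs exceeded the upper quartile of 0.88. Those of Csf1r and Apoe, Tyrobp and Lgals3, and Mrc1 and Cd163 lay between the median of 0.74 and that quartile. That of Cd14 and Msr1 was below the median. Trem2 and Apoe had r = -0.29 (rho = -0.44, adjusted permutation p = 0.304 and 0.103) on the brighter probe set of Trem2. Csf1r and P2ry12 had r = 0.14 (rho = 0.08, adjusted permutation p = 0.61 and 0.772), so no relation was detected over the 16 tumours without removing dose means. Their r was higher within each dose, 0.47 at 40 mg/kg and 0.21 at 160 mg/kg. The difference of 160 from 40 mg/kg was 0.60 for P2ry12 and -0.52 for Csf1r on the log2 scale, and neither passed. Whether the 2 receptors are related within doses was not tested.

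**Figure D5:**
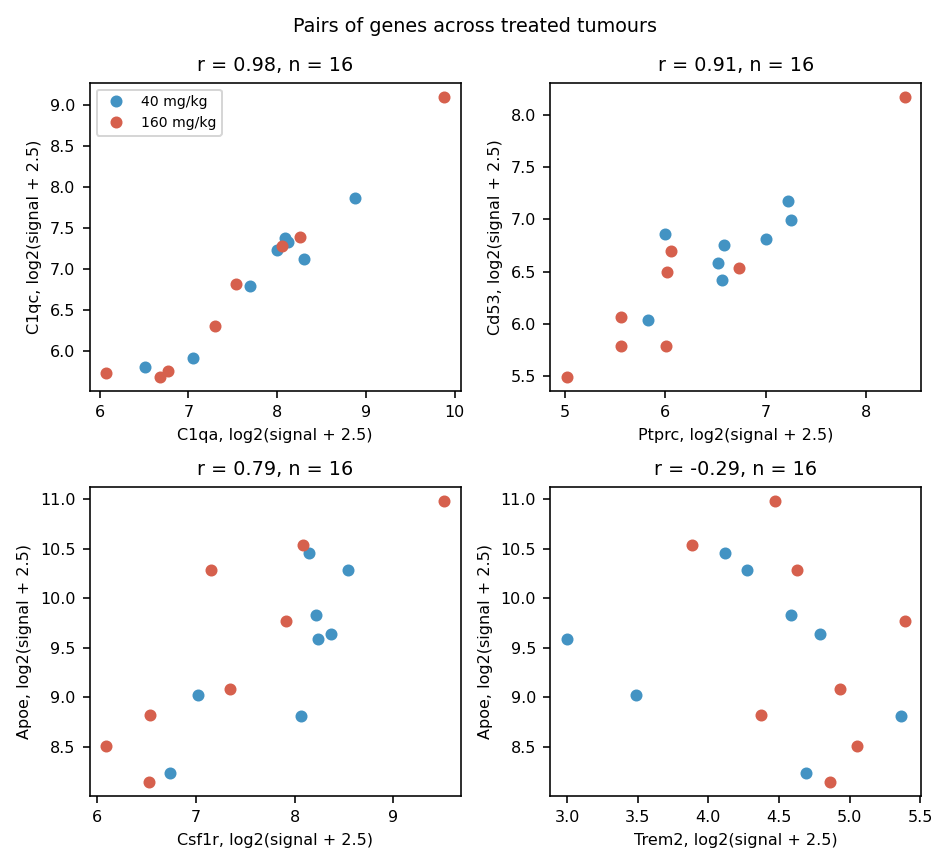
Log2(signal + 2.5) of 4 pairs of genes over the 8 tumours at 40 mg/kg (blue) and the 8 at 160 mg/kg (red), with Pearson's r over all 16. C1qa with C1qc, Ptprc with Cd53 and Csf1r with Apoe rise together (r = 0.98, 0.91 and 0.79), with 160 mg/kg tumour 6 at the top right of each, while Trem2 with Apoe shows no such rise (r = -0.29).

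Further myeloid genes were read from 7 lists, among them a list of 9 homeostatic microglial genes, of which 7 passed the filter. In treated tumours against vehicle, 0 genes passed among 15 kept growth factors, chemokines and their receptors, 18 of myeloid signalling, 7 myeloid transcription factors, 7 homeostatic microglial genes, 17 lysosomal and lipid genes, 6 of MHC class II and 8 of macrophage activation. By limma at an unadjusted p under 0.05 the counts were 2, 2, 2, 0, 3, 0 and 0. Over all genes, 5.32% passed and 23.4% had an unadjusted p under 0.05. The list medians ran from -0.25 for the transcription factors to 0.31 for the activation genes, beside -0.06 over all genes. Cebpa, a transcription factor of myeloid differentiation also used by other tissues, had the smallest p: its signal was 162 ± 37.8 (SD, n = 3) in vehicle tumours, 57.7 ± 35.2 (n = 8) at 40 mg/kg and 59.1 ± 16.1 (n = 8) with the higher dose, a change of -1.58 ± 0.46 (limma adjusted p = 0.0525). Gpnmb, a glycoprotein of lipid-laden macrophages and of pigment cells, read 24.4 ± 5.37 in vehicle tumours, 105 ± 86.6 at 40 mg/kg and 99.4 ± 100 with the higher dose, a change of 1.58 ± 0.59 (limma adjusted p = 0.127). Irf5, another of the transcription factors, had the second smallest p of the 7 lists, with a change of -0.54 ± 0.18 (limma adjusted p = 0.0828). Of the 7 transcription factors, 1 was below every vehicle tumour in all treated tumours, against 2.53% of all genes. Ccr2, the chemokine receptor of inflammatory monocytes, gave -1.10 ± 0.43 and Clec7a, the receptor dectin-1, gave 0.79 ± 0.28 (limma adjusted p = 0.141 and 0.105), which did not pass. Tmem119, a marker of microglia, gave -0.62 ± 0.48 (limma adjusted p = 0.47).

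Several of these lists followed the 30 genes from tumour to tumour. Within doses, the median r of their genes with the 30 genes over 16 treated tumours was 0.59 for myeloid signalling, 0.54 for lysosomal and lipid genes, 0.52 for chemokines and receptors, 0.39 for MHC class II, 0.38 for the microglial genes, 0.30 for the activation genes and 0.24 for the transcription factors. The genes with the highest values were Ctsc, the lysosomal protease cathepsin C (0.86), C3ar1, a complement receptor (0.83), and Plek, a phagocyte and platelet signalling protein (0.81). Without 160 mg/kg tumour 6 these were 0.76, 0.71 and 0.70. The list medians without that tumour were 0.44 for myeloid signalling, 0.42 for lysosomal and lipid genes, 0.40 for chemokines and receptors, 0.33 for MHC class II, 0.20 for the microglial genes, 0.04 for the activation genes and 0.35 for the transcription factors. The values of the microglial and activation genes thus rested in large part on that 1 tumour. In it 14 of 18 myeloid signalling genes, 9 of 17 lysosomal and lipid genes, 6 of 15 chemokines and receptors, 3 of 7 microglial genes, 3 of 8 activation genes, 1 of 7 transcription factors and 0 of 6 MHC class II genes had their highest treated value, against 8.68% of all genes. The summed signal of the MHC class II genes in it was 449, the highest at 160 mg/kg, against vehicle sums of 268 to 423 and sums of 225 to 604 at 40 mg/kg.

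Markers of other cell types were read beside the high values of 160 mg/kg tumour 6. The summed signal of the 30 genes was 13578 there, against vehicle sums of 2855 to 4029, sums of 2110 to 7194 with 40 mg/kg, and a lowest sum of 1890 in 160 mg/kg tumour 5. Sums of this kind lean on the brightest probe sets, here Apoe at 2020.1 and Lyz2 at 1863.7, and do not weigh genes equally. The summed signal of 8 fibroblast genes was also highest there, at 7679, against vehicle sums of 3046 to 6584. Their sums were 3058 to 6494 with 40 mg/kg, and the lowest with 160 mg/kg was 1762. In 160 mg/kg tumour 6, 4 of the 8 had their highest treated value, against 8.68% of all genes. The 9 skeletal muscle genes and the 7 kept astrocyte genes had their lowest sums in the same tumour, 129 and 1379, against vehicle ranges of 610 to 3106 and 3244 to 3351. The muscle sums with 40 mg/kg ran from 131 to 17846 and the astrocyte sums from 1791 to 4245, so a muscle sum nearly as low was also found there. The sum of 5 kept neutrophil genes was 76.0, within the vehicle range of 44.3 to 156, and of 13 lymphocyte genes 1 passed the filter. The 8 kept endothelial genes summed to 477, within the vehicle range of 462 to 711. Of the 10 granule neuron precursor genes, 4 also had their highest treated value in 160 mg/kg tumour 6. Their sum there was 16777, against 9787 to 10602 in vehicle tumours, 13387 to 17217 with 40 mg/kg and 11598 to 19721 with 160 mg/kg. The 2 kept dendritic cell genes summed to 84.7 (vehicle 50.8 to 66.2). The 3 kept mast cell genes summed to 46.2 (vehicle 32.1 to 105), their lowest treated sum. Within doses, the median r with the 30 genes was 0.58 for the fibroblast, 0.13 for the endothelial, 0.07 for the muscle, -0.22 for the neutrophil and -0.26 for the astrocyte genes. Without 160 mg/kg tumour 6 these were 0.39, 0.15, 0.21, -0.26 and 0.10, so the sign for the astrocyte genes turned with that 1 tumour. For the granule neuron precursor, dendritic cell and mast cell genes the median r was 0.08, 0.43 and -0.13. It was 0.24, 0.49 and 0.18 without that tumour. The part of these cells in the pattern of 160 mg/kg tumour 6 was not tested.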

How the data were processed

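Tumour RNA was measured on Affymetrix mouse 430 arrays, 1 array per tumour (3 vehicle, 8 at 40 mg/kg, 8 at 160 mg/kg). The deposited values are signal intensities that the authors made with MAS5, per the submitters' processing notes; MAS5 subtracts a local background and scales each array, and its version and target were not given in the sources used here. Detection calls, scan dates and batches were not used here. The depth of an array is not counted, so precision is limited by the number of arrays.

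Of 45101 probe sets, 64 controls were left out. GEO's platform annotation gave 34945 of the rest 1 gene symbol, 932 several and 9160 none. A probe set was kept if 3 or more arrays read it above their own 40th percentile. Values were tested as log2(signal + 2.5), the pseudocount being the 10th percentile of all values, with limma 3.58.1 (lmFit, eBayes with trend, R 4.3.3) on 3 group means, 16 residual degrees of freedom, two-sided, Benjamini-Hochberg over 31143 probe sets. The fit and the permutation test were tested on simulated data. Values are given for the 6 genes with the smallest p in treated tumours, the 4 with the smallest between doses, any gene that passed, and 11 anchors; the rest are given as counts and ranges. The genes, lists, pairs and tests were chosen with earlier results of these data known. The alternatives tried were array medians subtracted, quantile normalization, other filters and pseudocounts, no variance trend, array weights, a block of tumour numbers, the compared groups alone, all probe sets of a gene, and each array left out. One alternative, without the 2 arrays least like the others, was added after seeing the data.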

Additional observations from a re-analysis of the deposited data

Results flagged for a closer look

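Each of the 30 genes was screened at both doses, 60 groups of 8 tumours in all, for a single tumour far from the others, by the gap to its nearest neighbour over the range of the group on the linear signal. Chance marks about 1 group in 20 where values are normally distributed, and linear signals are skewed: over all 13454 genes the same screen marked 9.97% at the lower dose and 13.1% at 160 mg/kg. Of the 30 genes it marked 0 at the lower dose and 21 (70.0%) at 160 mg/kg. Each of the 21 had tumour 6 as its highest, which was so for 1.81% of all genes. The genes were read on the same array and vary together, so these are not 21 independent events, and their cause was not tested.

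The values below are those of 160 mg/kg tumour 6, with the next highest tumour of the 160 mg/kg group alone in brackets. Tumours at 40 mg/kg were often closer: set against all treated tumours, tumour 6 was 1.21-fold (Fcgr1) to 2.5-fold (Mpeg1) the next. The adaptors and Fc receptors read 397.8 for Tyrobp (next 149.5), 356.5 for Fcer1g (92.2), 78.9 for Fcgr1 (35.1) and 168.8 for Fcgr3 (81.5). The receptors Csf1r and Cx3cr1 read 726.9 (next 269.9) and 111.4 (43.7). Complement C1q read 939.3 for C1qa (next 304.7), 969.7 for C1qb (449.9) and 548.3 for C1qc (164.8).

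Surface and scavenger receptors read 170.9 for Adgre1 (next 86.0), 68.7 for Cd14 (27.0), 122.4 for Msr1 (62.2), 405.6 for Ms4a7 (180.8) and 236.2 for Ly86 (98.7). The leukocyte genes Ptprc and Cd53 read 331.2 (next 104.2) and 286.0 (101.6). Lysosomal and effector genes read 279.6 for Cd68 (next 140.4), 1863.7 for Lyz2 (958.2), 806.4 for Mpeg1 (182.7), 172.4 for Cybb (77.8) and 176.4 for Aif1 (61.8). Mpeg1 had the widest gap, 0.81 of the range of its group, and Lyz2 the narrowest of the 21, 0.55.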

How the results depend on the processing

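Of the 821 recomputed values of named genes, 804 were counted as the same, 12 newly passed and 5 were counted as changed in sign. The count does not measure the direction of every gene described. The kept probe sets of Csf1r gave 0.17, -0.13 and -0.52 in treated tumours, and no sign change was counted for it. The sign changes counted were of Trem2 with the mean of its kept probe sets (0.19 in treated tumours, 0.14 at 40 mg/kg, 0.23 at 160 mg/kg), and of Spi1 at 160 mg/kg with array weights (0.05) and with vehicle tumour 3 and 160 mg/kg tumour 2, the least alike, left out (0.05). Genes of the 30 that passed numbered 0 in treated tumours, 1 with array medians subtracted (Apoe), 4 with array weights (Apoe, Mpeg1, Cd14, Adgre1) and 0 to 1 with single tumours left out. They numbered 4 with array weights (the same 4) and 2 with the compared groups alone (Apoe, Lgals3) at 40 mg/kg, and 1 with array weights and 0 to 1 with single tumours left out at 160 mg/kg (Apoe). Of all probe sets, 1392 passed in treated tumours, 8907 with array weights, 243 to 1662 with single tumours left out and 274 without the 2 least alike. The 668 at 40 mg/kg became 7452 with array weights, 1553 with the compared groups alone, 120 to 915 with single tumours left out and 169 without the 2 least alike. The 1260 at 160 mg/kg became 6145, 629, 217 to 1544 and 220. Between doses 1 probe set passed without the variance trend. The lowest counts were without vehicle tumour 3. The causes were not tested.

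Tumour numbers recur across groups, but 0 of 14 same-numbered pairs deviated together (r from -0.13 to 0.09), so they were not treated as pairing. With the number as a replicate block, 819 probe sets passed over both doses, 324 with 40 mg/kg and 842 with 160 mg/kg, with 0 of the 30 genes in each.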
